A study of Homo sapiens with 6 samples.

Results

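The 9 genes described here carry names that begin with IFI, for interferon-inducible: IFI6, IFI27, IFI27L1, IFI27L2, IFI44, IFI44L, IFI35, IFI16 and IFI30. They were chosen by symbol, as 9 of the 20812 genes that were read, and the set was selected on values of these same libraries, because several of its genes were already known to be high in cells that overexpress GIRK1. Their differences between GIRK1 and control cells are therefore given as a description. Whether a gene passed the test fitted over all genes is stated in the same way, and nothing is supported by it. Expression was measured in MCF10A, an established benign line of human mammary epithelial cells, by amplicon sequencing, in which 1 short stretch per gene is amplified from cDNA and its reads are counted. Values are given as reads and as RPM, in which the reads of a gene are scaled to the total of its library.

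The 6 libraries fell into 3 groups of 2 replicates each. The wt libraries came from the untransfected parental line. MCF10A-eGFP cells were stably transfected with the pIRES2eGFP plasmid and express eGFP alone. MCF10A-GIRK1 cells carry the same plasmid with the coding sequence of human KCNJ3, which encodes the potassium channel subunit GIRK1, so that they express eGFP as well. Both transfected lines were selected with G418 and sorted for eGFP fluorescence, which the parental line was not. Whether replicates came from separate cultures or separate lines is not clear, since the design text speaks of lines and the methods of replicates, and the spread between replicates may be technical.

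Interferons of type I and type III are secreted proteins that signal through JAK1 and TYK2 to a transcription factor complex, ISGF3, of which STAT2 and IRF9 are part. ISGF3 binds the interferon-stimulated response element (ISRE) in promoters, whereas interferon gamma acts through the gamma-activated site (GAS). The IFI symbol marks how these genes were found and not a protein family. IFI6, IFI27, IFI27L1 and IFI27L2 are related small hydrophobic proteins, IFI44 and IFI44L are a related pair, IFI16 is a DNA sensor of the PYHIN family, IFI35 is a leucine zipper protein that pairs with NMI, and IFI30 is a lysosomal thiol reductase (GILT) of the antigen presentation pathway.

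The promoter letters are shown because the ISRE and the GAS are the sites through which interferons are known to act. Windows of 300 bases, from 250 bases before to 50 bases after the start, were taken from RefSeq on GRCh38.p14 and matched all 9 genes. Both strands were searched for the ISRE letters GAAANNGAAA and for the GAS letters TTCNNNGAA. The ISRE letters were in 4 of the 9 genes, IFI6, IFI27, IFI44 and IFI44L, against 4.38% of the 27305 genes in the promoter table (3.57% of its 35116 windows). The stretches below run 5′ to 3′ on the strand of the gene and hold each match in capitals with 20 bases to either side, and a match on the other strand reads as TTTC letters.
IFI6, minus strand, chr1:27672256-27672368: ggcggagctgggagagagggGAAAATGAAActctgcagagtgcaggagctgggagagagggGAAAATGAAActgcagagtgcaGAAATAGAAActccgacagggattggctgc
IFI44L, plus strand, chr1:78620264-78620404: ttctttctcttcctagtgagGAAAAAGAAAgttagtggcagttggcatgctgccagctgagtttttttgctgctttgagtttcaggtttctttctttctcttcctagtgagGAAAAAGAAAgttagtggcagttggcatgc
IFI44, plus strand, chr1:78649751-78649800: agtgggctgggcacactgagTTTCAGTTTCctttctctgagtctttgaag
IFI27, plus strand, chr14:94110608-94110670: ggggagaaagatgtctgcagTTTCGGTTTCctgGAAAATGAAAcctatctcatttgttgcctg

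IFI6 held 3 matches, which begin 156, 115 and 93 bases before its start. IFI44L held 2, at 164 and 73 bases, and each lies in a copy of the same 85 bases, with the copies 91 bases apart. IFI6 likewise held a repeat of 29 bases, 41 bases apart, whereas the longest exact repeat in the windows of the other 7 genes was 7 to 11 bases. IFI27 held 2 matches on opposite strands, at 108 and 95 bases from the upstream of its starts, and IFI44 held 1 on the other strand, at 18 bases. IFI27 and IFI44, like IFI16, each have 2 RefSeq starts, and both windows of IFI27 and of IFI44 cover the same matches. The GAS letters were in 2 of the 9 genes, in IFI27 at 101 bases, where they overlap the ISRE letters, and in IFI35 at 22 bases. They were in 9.38% of all genes and 7.66% of all windows. Of the 35 genes of a wider interferon-stimulated list described further on that were matched to the promoter table, 24 held the ISRE letters and 11 the GAS letters. IFI16, IFI27L1, IFI27L2 and IFI30 held neither set of letters in these windows. A match is a stretch of letters and not a measured binding site.

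**Figure D1:**
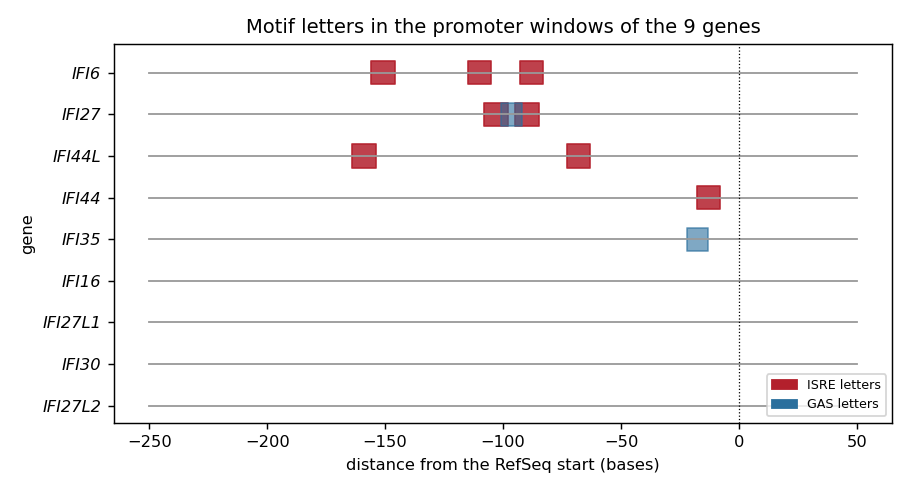
Distance of the ISRE letters (red) and the GAS letters (blue) from the RefSeq start, in bases, in the promoter window of each of the 9 genes, with the upstream start shown for genes that have 2. IFI6 holds 3 ISRE matches, IFI27 and IFI44L 2 each and IFI44 1, and the GAS letters lie in IFI27 and IFI35.

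In the genome (GRCh38, GENCODE annotation) the genes lie on 4 chromosomes, and some are neighbours. IFI44L (chr1:78619922-78646145) and IFI44 (chr1:78649796-78664078) are 3650 bases apart on the plus strand. IFI27L1 (chr14:94081282-94103846) and IFI27 (chr14:94104836-94116698) are 989 bases apart on the plus strand, and IFI27L2 (chr14:94127779-94130253) follows on the minus strand, 11080 bases beyond IFI27. Distances run between the ends of the GENCODE genes. The RefSeq windows of IFI27 described above lie inside its GENCODE span and not at its outer start. IFI6 (chr1:27666061-27672218, minus strand) and IFI16 (chr1:158999968-159055155, plus strand) stand alone on chromosome 1, IFI35 (chr17:43006725-43014456) on chromosome 17 and IFI30 (chr19:18173162-18178117) on chromosome 19.

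The libraries held 2506120 to 16040556 reads, so that 3 reads, the limit that a count of 0 allows, stood for 0.187 to 1.20 RPM. Exact (Clopper-Pearson) 95% intervals are given where 1 library is described, and intervals and limits cover counting error only. KCNJ3 had 2408 and 3677 reads in the MCF10A-GIRK1 libraries and 0 in both eGFP libraries and in wt replicate 2. The library labelled wt replicate 1 went against its label. It had 48 KCNJ3 reads, or 19.2 RPM (95% interval 14.1 to 25.4). Its 8 luminal markers summed to 14700 RPM against 453 to 951 in the other 5 libraries, with TFF1 and the oestrogen receptor ESR1 among them at 0 reads in those 5. Its 7 basal markers, which MCF10A carries, summed to 348 RPM against 8124 to 15580, and TP63 had 0 reads in all 6 libraries. That library is shown apart, and the controls below are eGFP replicates 1 and 2 and wt replicate 2. In the names of the deposited data, a tag is shared by both MCF10A-GIRK1 libraries and is missing from the other 4. Its meaning is not given, and were it a sequencing run, its part in the values below and that of GIRK1 cannot be told apart.

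Of the 9 genes, 6 were higher in both libraries of MCF10A-GIRK1 cells than in any control by 2.66-fold or more: IFI6, IFI27, IFI44L, IFI44, IFI35 and IFI16. On the scale of mean RPM, the difference from eGFP cells ranged from 3.06-fold for IFI16 to 320-fold for IFI6. IFI30 and IFI27L1 were within a small difference of the eGFP cells, and IFI27L2 was lower, at 0.431 of the eGFP mean. In edgeR's quasi-likelihood test over all genes, 6 of the 9 genes passed an adjusted p of 0.05 as higher and 0 as lower, while 0.756% of the 11779 genes tested passed as higher (89 genes). Against the 3 controls taken as 1 group, the same 6 genes passed, with 0.799% of 11389 genes as background (91 genes). In that fit IFI44L entered the test only through its reads in MCF10A-GIRK1, so it could not have passed as lower. Since the genes were chosen from this contrast, nothing is read from these counts. Both comparisons share the MCF10A-GIRK1 and eGFP libraries. In bulk RNA, more cells that express a gene and more RNA per cell cannot be told apart.

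**Figure D2:**
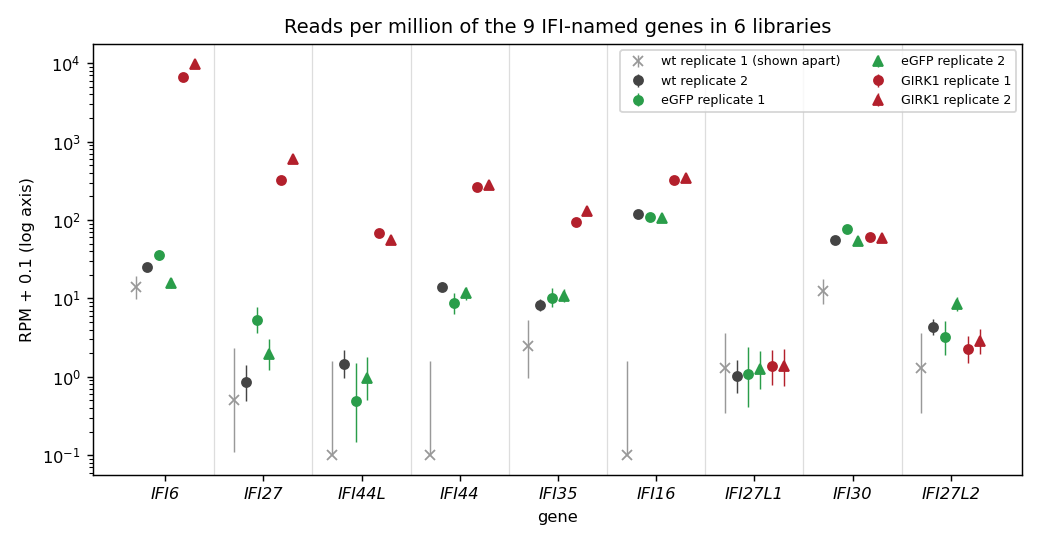
Scaled reads (RPM + 0.1, log axis) of the 9 genes in each of the 6 libraries, with exact 95% counting intervals as bars. Both MCF10A-GIRK1 libraries (red) lie above all 3 controls for IFI6, IFI27, IFI44L, IFI44, IFI35 and IFI16, for IFI27L1 the 5 libraries lie between 0.935 and 1.26 RPM, and the library labelled wt replicate 1 (grey crosses) is drawn apart.

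IFI6, a small mitochondrial and endoplasmic reticulum protein that protects cells from apoptosis, had the largest fold of the 9 genes in MCF10A-GIRK1 cells. MCF10A-GIRK1 replicate 1 held 73451 reads of it (6613 RPM) and replicate 2 held 101992 reads (9858 RPM), which is 0.661% and 0.986% of all reads of these libraries. The controls held 184 reads (35.9 RPM) and 160 reads (15.6 RPM) in eGFP replicates 1 and 2 and 403 reads (25.1 RPM) in wt replicate 2. The groups were far apart: the lower MCF10A-GIRK1 library was 184-fold above the highest control. The means were 8235 ± 2294 RPM (SD, n = 2) in MCF10A-GIRK1 and 25.8 ± 14.3 RPM (SD, n = 2) in eGFP cells, and the log2 fold change was 8.28 ± 0.576 (SE). By size it was place 6 of the 11779 genes tested. It was 9.06 without eGFP replicate 1, 7.74 without eGFP replicate 2, 8.55 without MCF10A-GIRK1 replicate 1 and 7.94 without MCF10A-GIRK1 replicate 2. In both groups the replicates differed beyond counting error, with replicate 2 at 1.49 times replicate 1 in MCF10A-GIRK1 cells, and replicate 1 at 2.3 times replicate 2 in eGFP cells.

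IFI27, a related membrane protein, was almost silent in the controls. The eGFP libraries held 27 reads (5.27 RPM) and 19 reads (1.86 RPM) and there were 12 reads (0.748 RPM) in wt replicate 2. MCF10A-GIRK1 cells held 3641 reads (328 RPM) and 6298 reads (609 RPM). These values did not overlap, with the lower MCF10A-GIRK1 library 62.3-fold above the highest control. The log2 fold change against eGFP was 7.10 ± 0.614 (SE), place 13 of all genes tested, and against the 3 controls it was 7.70 ± 0.734. Without eGFP replicate 1 the first of these was 7.99, and without eGFP replicate 2 it was 6.37. Against the 3 controls it was 8.61 without eGFP replicate 1 and 7.10 without wt replicate 2. The fold depended on which control it was set against, since the mean of MCF10A-GIRK1 was 132-fold the eGFP mean and 626-fold wt replicate 2. Against the 3 controls the call was lost without eGFP replicate 2 (log2 fold change 7.50) and without MCF10A-GIRK1 replicate 2 (7.13).

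The neighbours of IFI27 on chromosome 14, which are related to it in sequence, stood at a few reads in every library. IFI27L1 had 5 and 12 reads in the eGFP libraries, 15 in wt replicate 2 and 14 and 13 in the MCF10A-GIRK1 libraries. The controls were at 0.935 to 1.17 RPM and both MCF10A-GIRK1 libraries at 1.26 RPM. The MCF10A-GIRK1 libraries were just above the controls, by less than the counting intervals of each library, and the log2 fold change was 0.18 with a 95% interval of -1.29 to 1.65. IFI27L2 was at 3.12 RPM (16 reads) and 8.40 RPM (86 reads) in the eGFP libraries and at 4.24 RPM (68 reads) in wt replicate 2, against 2.16 RPM (24 reads) and 2.80 RPM (29 reads) in MCF10A-GIRK1. Both MCF10A-GIRK1 libraries were below all 3 controls, while the eGFP libraries differed from each other by 2.69 times. IFI27L2 had a log2 fold change of -1.27 (95% interval -2.52 to -0.03), and the gene did not pass the test. Without eGFP replicate 1 its log2 fold change was -1.74, and without eGFP replicate 2 it was -0.43. The intervals of IFI27L1 and IFI27L2 lay below that of IFI27, which ran from 5.65 to 8.55. The difference between these genes was not tested, and with so few reads a change of IFI27L1 within its interval was not detectable at this depth.

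IFI44 and IFI44L, neighbours on chromosome 1 and cytoplasmic proteins linked to antiviral responses, were both high in MCF10A-GIRK1 cells. IFI44 had 2962 reads (267 RPM) and 2916 reads (282 RPM) there. In eGFP cells there were 44 reads (8.58 RPM) and 118 reads (11.5 RPM) and in wt replicate 2 there were 225 reads (14.0 RPM). The MCF10A-GIRK1 replicates were close, at 274 ± 10.7 RPM (SD, n = 2), and 19.0-fold or more above each control. Its log2 fold change was 4.72 ± 0.253 (SE), place 50 of all genes tested.

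IFI44L was nearly absent from the controls, with 2 reads (0.390 RPM) and 9 reads (0.879 RPM) in eGFP cells and 22 reads (1.37 RPM) in wt replicate 2. MCF10A-GIRK1 cells had 755 reads (68.0 RPM) and 569 reads (55.0 RPM). Here too the groups did not overlap, and the lower MCF10A-GIRK1 library was 40.1-fold above the highest control. The log2 fold change was 6.41 against eGFP, with a 95% interval of 5.51 to 7.31, and 5.92 against the 3 controls. The eGFP value rests on 11 reads in all, and the former was 7.16 without eGFP replicate 2 and 6.13 without eGFP replicate 1. Of its reads, 753 of 755 and 569 of 569 were in the forward direction in the MCF10A-GIRK1 libraries, whereas IFI6, IFI27, IFI44, IFI35, IFI16 and IFI30 had 35.6% to 54.4% forward reads there.

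IFI35, the leucine zipper protein that pairs with NMI, had 1042 reads (93.8 RPM) and 1362 reads (132 RPM) in MCF10A-GIRK1 cells. The eGFP cells were at 10.1 RPM (52 reads) and 10.7 RPM (110 reads), and wt replicate 2 was at 8.10 RPM (130 reads). The 3 controls were close to one another, and the lower MCF10A-GIRK1 library was 8.73-fold above the highest of them. Its log2 fold change was 3.39 ± 0.276 (SE), place 89 of all genes tested. NMI, its partner, was at 4.68 and 7.43 RPM in eGFP, 8.67 RPM in wt replicate 2 and 14.9 and 15.7 RPM in MCF10A-GIRK1. NMI did not pass the test, with a log2 fold change of 1.28 ± 0.313 (SE) and an adjusted p of 0.106 in edgeR.

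IFI16, the nuclear and cytosolic sensor of double-stranded DNA, had many reads in the controls too. There were 562 reads (109.6 RPM) and 1086 reads (106.1 RPM) in eGFP cells, 1929 reads (120.3 RPM) in wt replicate 2 and 3553 reads (320 RPM) and 3520 reads (340 RPM) in MCF10A-GIRK1 cells. The replicates of each group lay close together and the groups did not overlap, with the lower MCF10A-GIRK1 library 2.66-fold above the highest control. For IFI16 the log2 fold change was 1.57 ± 0.212 (SE), and 3.14% of the genes tested had a larger one. Its call was lost without MCF10A-GIRK1 replicate 2 (1.51), and against the 3 controls without eGFP replicate 2 (1.48), MCF10A-GIRK1 replicate 1 (1.60) or MCF10A-GIRK1 replicate 2 (1.48). The other PYHIN genes, AIM2, MNDA and PYHIN1, summed to 0 to 0.967 RPM in the 6 libraries and were too low to be tested.

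IFI30 is induced by interferon gamma in many cells and reduces disulphide bonds of antigens for presentation on MHC class II. There were 392 reads (76.5 RPM) and 557 reads (54.4 RPM) in eGFP cells, 901 reads (56.2 RPM) in wt replicate 2 and 684 reads (61.6 RPM) and 617 reads (59.6 RPM) in MCF10A-GIRK1 cells. It was the gene of the 9 whose groups overlapped. Its log2 fold change was -0.16, and the 95% interval of -0.76 to 0.45 held none of the fold changes fitted for the 6 high genes. Of 10 genes of the class II pathway, CD74, HLA-DRA, HLA-DPB1 and HLA-DMB had 0 reads in all 6 libraries, and the class II activator CIITA had reads in wt replicate 2 alone, at 0.062 RPM. HLA-DRB1 had 70 reads, all in the library labelled wt replicate 1. Of the 4 that were tested, 0 passed. LGMN, a lysosomal protease, was at 62.7 and 51.1 RPM in MCF10A-GIRK1 against 97.7 and 84.6 RPM in eGFP and 72.6 RPM in wt replicate 2. CTSS, another, was at 0.540 and 0.677 RPM against 2.73, 1.47 and 0.623 RPM. HLA-DMA had 8 to 26 reads in these 5 libraries. HLA-DPA1 had 7 and 17 reads in MCF10A-GIRK1, 0 in both eGFP libraries and 7 in wt replicate 2.

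**Figure D3:**
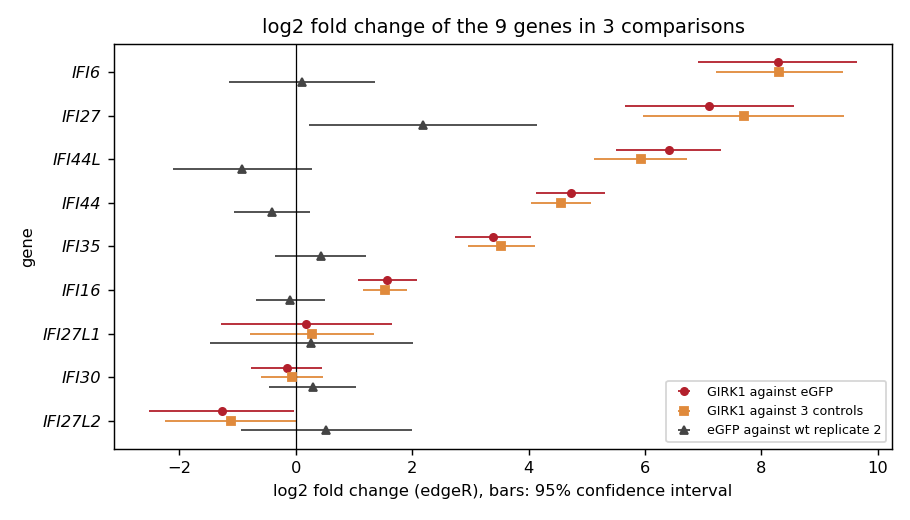
Log2 fold change of the 9 genes from edgeR with 95% confidence intervals, for MCF10A-GIRK1 against eGFP (red circles), MCF10A-GIRK1 against the 3 controls (orange squares) and eGFP against wt replicate 2 (black triangles). The first 2 share libraries and give like values, from 8.28 and 8.31 for IFI6 to -1.27 and -1.11 for IFI27L2, while the third runs from -0.92 for IFI44L to 2.19 for IFI27.

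Counted by overlap, both MCF10A-GIRK1 libraries were above all 3 controls for 7 of the 9 genes (the 6 above and IFI27L1), below them for IFI27L2 and among them for IFI30. Over the 11150 genes that averaged 10 or more reads in these 5 libraries, 21.6% were above in the same way and 19.5% were below. The separation of IFI27L1 is therefore of a kind that many genes show. The median log2 fold change over the 9 genes was 3.39, against 0.02 over all genes tested.

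Levels of different genes were not compared, because each gene is read by its own amplicon. By log2 fold change the order was IFI6, IFI27, IFI44L, IFI44, IFI35, IFI16, IFI27L1, IFI30 and IFI27L2. The 95% intervals of neighbours in this order overlapped for IFI6 and IFI27, for IFI27 and IFI44L, for IFI16 and IFI27L1, and among IFI27L1, IFI30 and IFI27L2. IFI44L lay above IFI44, IFI44 above IFI35 and IFI35 above IFI16 without overlap of their intervals.

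The eGFP libraries were also compared with wt replicate 2, a contrast that did not choose the genes. In edgeR 0 of the 9 genes passed, with adjusted p-values of 0.953 to 0.986, and 0% of all 11779 genes passed. At an unadjusted p below 0.05 there were 418 genes, and DESeq2 called 5. The log2 fold change was largest for IFI27, at 2.19 (95% interval 0.23 to 4.15), with both eGFP libraries above wt replicate 2. Without eGFP replicate 2 the log2 fold change of IFI27 was 2.92. IFI44L (-0.92) and IFI44 (-0.41) were lower in both eGFP libraries than in wt replicate 2, within intervals that held 0. With 1 wt library in the fit, its spread was taken to be that of the other groups.

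Genes of the signalling chain were described from a list of 8. STAT2, IRF9 and IRF7 passed the test as higher in MCF10A-GIRK1 than in eGFP cells, and 5 did not, beside 0.756% called higher over all genes tested. IRF9, the part of ISGF3 that contacts the ISRE, was at 109.7 and 151 RPM in MCF10A-GIRK1 against 15.6 and 13.0 RPM in eGFP and 14.8 RPM in wt replicate 2. STAT2, which ISGF3 also holds, was, in the same order, at 117 and 142.8 RPM against 30.0, 30.7 and 28.2 RPM. IRF7, a factor that amplifies interferon production, was at 98.3 and 119 RPM against 1.95, 4.01 and 4.12 RPM. These 3 did not overlap between the groups, with log2 fold changes of 3.16 for IRF9, 2.06 for STAT2 and 5.09 for IRF7. IRF1 and JAK1 were also above all 3 controls in both MCF10A-GIRK1 libraries, and IFNAR2 was below them. That is 5 of the 8 above and 1 below, beside 21.6% and 19.5% of the genes that averaged 10 or more reads. The receptor chains IFNAR1 (log2 fold change 0.08) and IFNAR2 (-0.28), the kinases JAK1 (0.66) and TYK2 (-0.58) and the factor IRF1 (0.92) did not pass, with adjusted p-values in edgeR of 0.162 to 0.864.

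A wider list of 45 interferon-stimulated genes, which holds STAT2, IRF9 and IRF7 as well, was set beside the 9. Of the 43 that could be tested against eGFP, 33 passed as higher and 0 as lower, with a median log2 fold change of 3.16, beside 0.756% called higher and a median of 0.02 over all genes tested. That median became 2.85 with the 3 genes at 0 reads in both eGFP libraries (MX2, XAF1 and SAMD9L) set to their lower bounds. These 3, CMPK2 and RTP4 entered the test only through their reads in MCF10A-GIRK1, so they could not have passed as lower. SAMD9L and CMPK2 are among the 33. The 3 largest fitted changes belonged to XAF1, SAMD9L and CMPK2. XAF1, a factor that promotes apoptosis, had 25 and 93 reads in MCF10A-GIRK1 and 0 in all controls, which is at least 9.6-fold higher than the 3-read limit of the shallower eGFP library, and it did not pass. SAMD9L, an antiviral restriction factor, had 37 and 53 reads against 0, 0 and 6, at least 7.22-fold higher than eGFP by the same limit, and passed. CMPK2, a mitochondrial nucleotide kinase, was at 18.4 and 14.0 RPM against 1 read in eGFP replicate 2, 1 in wt replicate 2 and 0 in eGFP replicate 1. The 3 smallest changes were those of LGALS3BP (0.32), IFITM2 (0.52) and LY6E (0.77), of which 0 passed. Both MCF10A-GIRK1 libraries were above all 3 controls for 42 of the 45 genes, beside 21.6% of the genes that averaged 10 or more reads. The 45 were not filtered on reads, and the 42 hold IFITM1 and MX2, with 13 and 22 reads over all libraries. Lists of this kind were written with the outcome known and are not independent evidence of a direction.

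**Figure D4:**
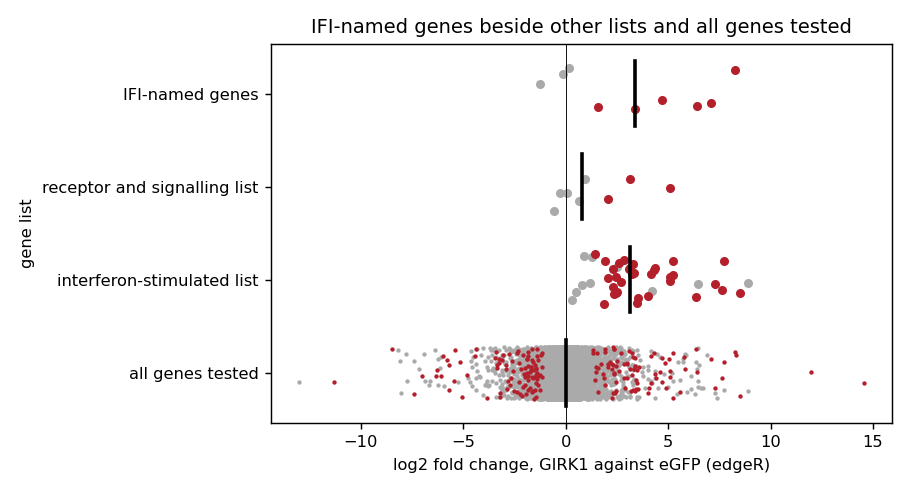
Log2 fold change of MCF10A-GIRK1 against eGFP for the 9 genes, the 8 signalling genes, the 43 tested interferon-stimulated genes and all 11779 genes tested, with 1 point per gene, red where the gene passed the edgeR test and a black bar at the median. The medians are 3.39, 0.79, 3.16 and 0.02.

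Genes alike in profile over the 6 libraries were searched for among the genes tested, with the 9 genes themselves left out as candidates. The genes most like a gene here were those with the smallest root mean square difference of centred log2(RPM + 1). For IFI6 they were IFIT1 (0.861), OAS2 (1.21) and RSAD2 (1.82). For IFI44L they were KLHDC7B (0.455), OAS2 (0.465) and IFIT3 (0.481), and for IFI16 HLA-B (0.407), RAB38 (0.454) and CASP4 (0.527). The 6 points of each profile share their libraries, and the likeness is a description.

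Markers of other cell types were read beside these values. The 7 leukocyte markers summed to 31.0 and 35.1 RPM in MCF10A-GIRK1 and to 22.3 to 45.8 RPM in the controls, and PTPRC, CD3E, TYROBP and LYZ had 0 reads in all 6 libraries. The 6 fibroblast markers summed to 31.9 and 33.5 RPM in MCF10A-GIRK1 against 8.60 to 13.7 RPM in the controls, of which DCN made up 27.0 and 25.2 RPM against 0.780 to 10.2 RPM. DCN passed as higher against eGFP, with a log2 fold change of 3.37 and an adjusted p of 0.0328 in edgeR, and did not pass against the 3 controls. Of the basal markers, KRT17 passed as higher and LAMB3 as lower in MCF10A-GIRK1. The part of DCN, KRT17 and LAMB3 in the values of the IFI genes was not tested.

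The library labelled wt replicate 1 is in no comparison of groups above, though the profiles used for likeness hold it. In this library IFI16, IFI44 and IFI44L had 0 reads, which allows up to 1.20 RPM by the 3-read limit (exact 95% interval up to 1.47 RPM). IFI16 had 562 to 3553 reads in the other 5 libraries. IFI6 had 35 reads there (14.0 RPM, 95% interval 9.73 to 19.4) and IFI30 31 reads (12.4 RPM, 95% interval 8.40 to 17.6), both below the 3 controls, although the interval of IFI6 held the lowest of them. IFI35 had 6 reads, IFI27L1 and IFI27L2 3 each and IFI27 1. Of the 9 genes, IFI27L1 was the one at or above the controls there, at 1.20 RPM.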

How the data were processed

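Per the study's methods, the authors mapped Ion AmpliSeq reads with the Ion Torrent suite to a transcriptome reference of amplicons, and deposited read counts per amplicon, split by direction, and an RPM value, the count over the library total. How reads of near-identical copies were handled is not given in the sources used here. Amplicon positions are on transcripts, so gene positions come from GENCODE release 29 (GRCh38), matched by symbol, and promoters from RefSeq (GRCh38.p14).

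The deposited counts of 5 libraries (all but wt replicate 1) were tested with edgeR 4.0.16 (R 4.3.3): filterByExpr, TMM, glmQLFit and glmQLFTest on group means, Benjamini-Hochberg adjustment over all genes, threshold 0.05. MCF10A-GIRK1 and eGFP were compared in a fit with 3 groups, and MCF10A-GIRK1 and the 3 controls in a fit with 2. Standard errors were derived from the F value. The procedure was tested on simulated data, and nothing above rests on that test. Alternatives were other normalizations, filters, DESeq2 1.42.0, 4 or 6 libraries, the replicate block, the deposited coverage by end-to-end reads as the count, and leaving out each replicate. Other deposited columns, such as amplicon position and GC bases, were not used.

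The members and lists were chosen with earlier results of these data known. The text names all 9 genes, all genes of the signalling, PYHIN and NMI lists, the class II genes with at least 10 reads in any library, the 3 largest and 3 smallest changes of the interferon-stimulated list, and the genes most alike to 3 members. The other genes named were chosen after their values were seen. Some genes of the lists as first written are not reported here and are left out of the list counts.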

Additional observations from a re-analysis of the deposited data

Results flagged for a closer look

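The library labelled wt replicate 1 enters no comparison of groups outside the fits with all 6 libraries. In it, 3 genes of the signalling list had a level whose 95% counting interval lay above all 3 controls. STAT2 was at 45.5 RPM against 28.2 to 30.7 RPM, and IRF7 was at 15.2 RPM against 1.95 to 4.12 RPM. JAK1 was at 110.5 RPM against 42.3 to 66.5 RPM. In the same library IFI44, IFI35, IFI16 and IFI30 had intervals below all 3 controls. IFI6, IFI27, IFI44L and IFI27L2 had values below those of the controls, with intervals that held the lowest control, IFI27 with 1 read. There is 1 library of this kind, with 2506120 reads, so these values have no replicate check.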

How the results depend on the processing

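The 6 calls among the 9 genes against eGFP, and the same 6 against the 3 controls, were each made under both other normalizations, no filter, DESeq2, the covering reads where the gene was tested, and the replicate block. Counts over all genes moved more. For MCF10A-GIRK1 against eGFP (89 higher, 99 lower) they were 313 and 552 with no filter, 57 and 50 with at least 10 reads in every library, 227 and 450 with DESeq2, and 196 and 353 with the replicate block. For the 3 controls (91 higher, 47 lower) they were 182 and 192 with no filter, 339 and 467 with DESeq2, and 232 and 326 with the replicate block, and 84 were lower with the 4 libraries of MCF10A-GIRK1 and eGFP. For eGFP against wt (0) they were 6 with no filter, 5 with DESeq2 and 1 with the replicate block, where IFI6 turned to -0.10. The labels share only 2 replicate numbers between groups. Differences between replicates correlated across 9212 genes at 0.194 (eGFP and GIRK1), 0.142 (eGFP and wt) and 0.042 (GIRK1 and wt). The wt differences rest on the library labelled wt replicate 1. Whether libraries with the same number share more than the number is not given by the labels and was not tested.

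With all 6 libraries, the library labelled wt replicate 1 included, 0 genes were called higher and 0 lower against eGFP and 0 of the 9, while the log2 fold change of IFI6 was 8.27. Against the 4 controls 7 were higher and 0 lower, among them 1 of the 9, IFI6. IFI30 then turned to 0.26, and for eGFP against wt IFI44 turned to 0.44 and IFI16 to 0.88. The biological coefficient of variation was 0.468 in that fit and 0.243 without the library.

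Leaving out a replicate gave 86 to 1372 higher and 72 to 1625 lower against eGFP, with the upper ends without eGFP replicate 2, and 17 to 485 higher and 2 to 499 lower against the 3 controls, with the lower ends without MCF10A-GIRK1 replicate 2 and the upper without eGFP replicate 1. IFI30 ran from -0.44 to 0.17 and from -0.17 to 0.15. For eGFP against wt, 5 to 1268 genes and 0 to 1 of the 9 (IFI27) were called, the upper ends without eGFP replicate 2, with IFI6 from -0.68 to 0.63, IFI27L2 from -0.32 to 0.99 and IFI30 from -0.046 to 0.57. The cause of these moves was not tested. A lone library was assumed to vary like the others, and eGFP against wt could not be fitted without wt replicate 2. Depth limits IFI27L1 and IFI27L2, with 5 to 86 reads in the compared libraries.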
